A study of Drosophila melanogaster with 2 samples.

Results

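Deep intronic peaks are sites at which tagged Oli was recovered inside an intron of a protein-coding gene and far from the start of any coding transcript. They were taken from the list of 6496 peaks that passed the irreproducible discovery rate (IDR) threshold, a list made by the authors from both replicates. A peak was a member where its summit lay in no annotated exon, over 5000 bp from the start of every coding transcript, and neither inside nor within 500 bp of the start of a gene named as a long non-coding RNA. The rule took in 1032 of the 6496 peaks (15.9%), and it used position only, not signal or sequence. The nearest member inside the limit stood 5001 bp from a start, in shep (signal 361), and the nearest intronic peak outside it at 4990 bp (signal 453). Within 250 bp of the limit lay 40 members and 46 intronic peaks that missed it, so the limit divides a continuous range.

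The peaks come from ChIP-seq, in which DNA bound by a protein is precipitated with an antibody and sequenced. Whole Drosophila melanogaster embryos of mixed sex, 6 to 18 hours old, carried a transgene for Oli with GFP at its C terminus, and an antibody against GFP was used on chromatin sheared to 200 to 800 bp. There was 1 group, with 2 biological replicates and nothing to compare it with, and 30000 peaks were listed for each replicate and for the pool of both. The antibody sees tagged Oli alone, and whole embryos mix all cell types, so a peak does not say in which cells it was occupied. The depth behind a peak is unknown.

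Oli is the fly member of the Olig family, whose proteins carry a basic helix-loop-helix (bHLH) domain. Such proteins bind as dimers to the E-box, CANNTG, and the mammalian Olig proteins act in the formation of motor neurons and oligodendrocytes. Long introns of Drosophila developmental genes often hold enhancers, the sequences that set where and when a gene is transcribed, and a factor can act from there on the host gene or on a neighbour. Which gene a deep intronic peak acts on is not given by its position.

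The sequence that recurred at these peaks is shown first in 4 of them. They are the strongest on the chromosome arms used for printed sequence that hold the 5 letters CACTG or the reverse complement CAGTG from 50 to 125 bp on each side of the summit. Copies on both sides were present in 158 of the 1032 members (15.3%), and at least 1 copy at these distances in 522 (50.6%). The summit is the middle base of each stretch, the strand is the plus strand of dm6 (sequence from RefSeq), and capitals mark every copy of the 5 letters. The genes are Gug (chr3L:8458216-8458466), which encodes the corepressor Atrophin, tara (chr3R:16236830-16237080), a Trithorax group gene, Hr4 (chrX:1963818-1964068), which encodes a nuclear receptor, and Sema1a (chr2L:8575040-8575290), which encodes a transmembrane semaphorin that guides axons.
Gug: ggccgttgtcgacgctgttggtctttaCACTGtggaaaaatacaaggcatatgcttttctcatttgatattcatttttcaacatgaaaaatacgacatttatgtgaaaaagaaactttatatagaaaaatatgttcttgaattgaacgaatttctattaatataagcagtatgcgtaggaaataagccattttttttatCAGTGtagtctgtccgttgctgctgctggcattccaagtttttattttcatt
tara: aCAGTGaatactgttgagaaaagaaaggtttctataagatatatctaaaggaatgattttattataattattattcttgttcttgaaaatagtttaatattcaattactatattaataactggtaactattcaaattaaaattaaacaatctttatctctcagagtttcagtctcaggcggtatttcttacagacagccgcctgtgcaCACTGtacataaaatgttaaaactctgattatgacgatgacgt
Hr4: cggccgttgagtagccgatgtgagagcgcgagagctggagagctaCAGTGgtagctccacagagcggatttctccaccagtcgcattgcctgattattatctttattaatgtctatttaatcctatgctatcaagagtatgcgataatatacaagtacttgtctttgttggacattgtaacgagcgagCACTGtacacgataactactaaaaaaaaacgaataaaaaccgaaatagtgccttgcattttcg
Sema1a: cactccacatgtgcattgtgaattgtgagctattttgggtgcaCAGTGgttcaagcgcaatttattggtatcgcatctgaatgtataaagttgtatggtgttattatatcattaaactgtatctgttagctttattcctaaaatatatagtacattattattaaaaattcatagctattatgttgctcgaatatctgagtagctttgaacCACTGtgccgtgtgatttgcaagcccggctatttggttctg
In the 4 peaks the nearest copies stood 96, 122, 78 and 80 bp to the left and 76, 85, 65 and 87 bp to the right of the summit, in the order of the lines. The middle of each stretch is rich in A and T, with 23.8%, 22.8%, 31.7% and 21.8% G and C in the 101 bp at the summit.

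Signal was the height of a peak as the authors' caller gave it. Every one of the 1032 members overlapped a peak in both replicate lists by at least 1 bp, which the making of the IDR list favours. With an overlap of at least 50% of each peak 909 members (88.1%) had a partner in both, and 824 (79.8%) overlapped a peak among the strongest 6496 of each replicate. The replicate summits stood a median of 16 bp from the pooled summit in each replicate, and within 25 bp of it in 61.4% of members in replicate 1 and 63.4% in replicate 2. Across members, Spearman's rank correlation of the replicate signals was 0.742 and Pearson's r of their log2 values 0.794 (n = 1032 peaks that share 1 control, as a description). The width of 804 members (77.9%) was 416 bp exactly, and in all 804 the summit lay at the middle of the interval within 1 bp, against 11 of the other 228. The sources used here name no peak caller and no signal tracks were analysed, so whether a deposited summit is the point of highest coverage was not checked.

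**Figure D1:**
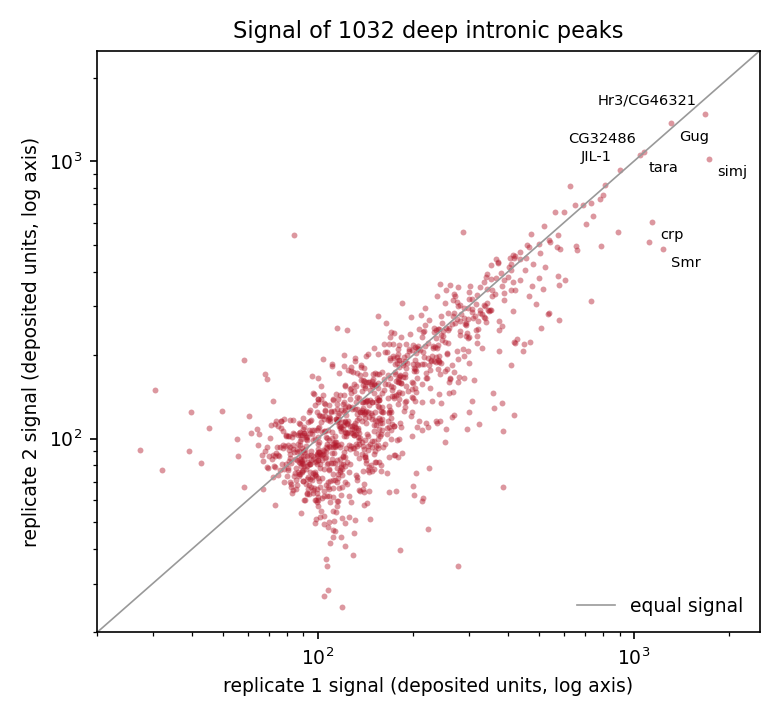
Signal of each of the 1032 deep intronic peaks in replicate 1 (horizontal) and replicate 2 (vertical), in the deposited units on log axes, with a grey line of equal signal. Of the 8 labelled peaks simj, crp and Smr lie below the line, with a higher signal in replicate 1, and the other 5 lie close to it.

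The strongest member lay in an intron shared by Hr3 and CG46321 on chromosome arm 2R (chr2R:10219884-10220290), with a signal of 1679 in replicate 1 and 1481 in replicate 2. Hr3 encodes an ecdysone-induced nuclear receptor. The nearest coding start, which is a start of CG46321, stood 7892 bp away. The next stood in the first intron of simj (chr3L:10682739-10683232), with signals of 1727 and 1022 in replicates 1 and 2. The product of simj is a subunit of the chromatin remodeller NuRD. Gug followed with 1311 and 1369, CG32486 with 1079 and 1077, and tara with 1043 and 1056. Among these 5 the replicates lay furthest apart at simj.

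Hosts of the remaining 10 of the 15 strongest members were regulators of several kinds. Chromatin and transcription were represented by JIL-1, a histone H3 kinase (903 and 930 in replicates 1 and 2), Smr, a corepressor of the SMRT family (1231 and 481), and Su(Tpl), a transcription elongation factor of the ELL family (733 and 705). The bHLH gene crp had 1137 and 604, and a second peak of tara 1115 and 513. Relative to replicate 1, the signal in replicate 2 was lowest at Smr, then at this second peak and at crp. Signalling was represented by the kinase gene Raf (813 and 822) and by N, the gene for the receptor Notch (796 and 756). A peak of Hr4 other than the one shown above had 779 and 730, and a second peak of simj 888 and 554. Tis11, which encodes a zinc finger protein of mRNA decay, had 629 and 816.

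Deep intronic peaks were weaker than peaks near starts. Of the members, 413 (40.02%) had a signal above the median of the IDR list, against 51.9% of the 5464 other peaks, a difference of -11.9 percentage points (Fisher's exact test, two-sided, Benjamini-Hochberg adjusted p = 4.52e-12). Against intronic peaks up to 5000 bp from a start, called near intronic here (n = 2288), the shares were 40.02% and 55.5% (adjusted p = 4.02e-16). Against intergenic peaks over 5000 bp from a start, called distal intergenic (n = 586), they were 40.02% and 36.2% (adjusted p = 0.137). The median signal was 258 at deep intronic, 323 at near intronic and 247 at distal intergenic peaks. Members held 5.60% of pooled ranks 1 to 500, 10.6% of ranks 501 to 1000, 13.4% of ranks 1001 to 2000, 17.1% of ranks 2001 to 4000 and 19.03% of ranks 4001 to 6496. Among members themselves signal and distance to a start were nearly unrelated (Spearman's rank correlation of -0.03, n = 1032, as a description). These p-values count peaks of 2 libraries and do not measure a spread between embryos.

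Sequence that meets the rule covers 26.8 Mb, and it held 38.5 members per Mb (36.2 to 40.9). All intervals are exact 95% intervals (Poisson for densities, Clopper-Pearson for shares) and cover counting error only. Near intronic sequence held 93.9 IDR peaks per Mb and distal intergenic sequence 28.4. The density of members was lower farther from a start: 58.9 per Mb at 5 to 10 kb, 40.9 at 10 to 20 kb, 30.1 at 20 to 40 kb and 3.68 beyond 40 kb. Neighbouring intervals in this order did not overlap. Much of the sequence beyond 40 kb lies in 5 genes with very long introns, Myo81F, Pzl, lovit, DIP-lambda and CG17684, which held 0 members. Repeat-masked bases made up 29.6% to 46.1% of their deep intronic sequence, and what part this had in the absence of peaks was not tested. Without these 5 genes, left out after the densities had been seen, the density beyond 40 kb was 10.2 per Mb (6.16 to 16.0). By chromosome, with these 5 genes counted, the density of members was highest on X, at 52.6 per Mb. It was 44.99 on 2L, 37.4 on 3L, 33.3 on 3R and 30.8 on 2R. Of the 8.11 Mb of such sequence on 3R, Myo81F held 1781 kb and Pzl 626 kb. DIP-lambda and CG17684 lie on 2R and lovit on 3L, and none of the 5 lies on X or 2L. The order of the chromosomes without these genes was not computed. Chromosome 4 held 0 members in 0.187 Mb, which allows up to 19.7 per Mb.

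**Figure D2:**
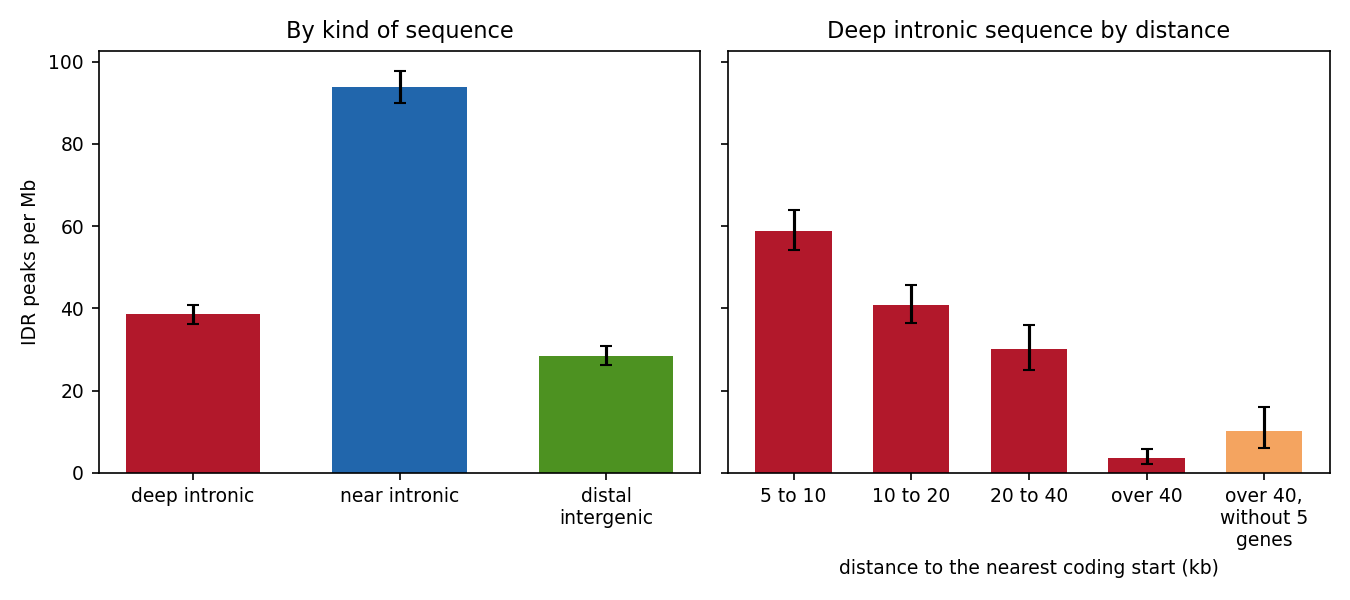
IDR peaks per Mb, with exact 95% Poisson intervals, by kind of sequence (left) and for deep intronic sequence by distance to the nearest coding start (right). Deep intronic sequence lies between near intronic and distal intergenic sequence, and its density falls with distance to 3.68 per Mb beyond 40 kb, or 10.2 without the 5 genes with the longest such sequence.

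Within their genes the members stood a median of 9395 bp from the nearest coding start, in introns with a median length of 20930 bp. The nearest start belonged to a gene around the peak in 723 cases (70.1%), and to a neighbour in the others. In the longest transcript over the summit, 359 members (34.8%) lay in the first intron, 371 (35.9%) in the next and 38 (3.68%) in the last of several. Another member lay within 5 kb of 512 (49.6%) and within 1 kb of 171 (16.6%), and none lay within 20 kb of 289 (28.0%). Of 28 neighbouring pairs less than 300 bp apart, the distances ran from 199 to 297 bp with a median of 205.5, and 0 pairs were closer. Whether the peak calling sets this lowest distance was not tested.

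Of 13945 coding genes, 1818 have sequence that meets the rule, and 478 of these (26.3%) held at least 1 member. Among the 478 hosts, 230 held exactly 1, 46 held 5 or more and 4 held 10 or more. kirre, which encodes an immunoglobulin-family adhesion protein of myoblast fusion, held 23, but in 211 kb of such sequence and at low signal, with a highest value of 546. sbb, which encodes the corepressor Scribbler, held 13 in 35.6 kb, with signals from 159 to 1240, and rdx, which encodes a ubiquitin ligase adaptor of the Hedgehog pathway, held 11 in 34.2 kb. The median signal of the members was 233 in kirre and 199 in rdx. The Hox cofactor gene hth held 10 and the Hox gene Antp 9, and the same 9 are counted for the overlapping gene CG46458. Another 4 genes held 8 each: tara in only 16.1 kb, the guidance gene Sema1a, the Ski family gene Snoo and cv-c. The median signal was 607 in tara, 406 in Snoo, 341 in Sema1a and 277 in cv-c, against 258 over all members. The 10 genes with the most members held 98 of the 1032 (9.50%). Oli itself has no sequence that meets the rule.

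Some hosts carried their members side by side. In sbb 8 summits lay within 8038 bp, with signals from 159 to 1240. In tna, which interacts genetically with the Brahma chromatin remodelling complex, 6 lay within 8782 bp, in pnt, which encodes an ETS factor of receptor kinase signalling, 6 within 9186 bp, and in rdx 6 within 9984 bp. Raf and simj each carried 5, within 5838 and 5486 bp, with highest signals of 1641 and 2777. In sbb, tna and simj some of these summits were neighbours less than 300 bp apart. Whether such pairs are separate sites was not tested. Hosts also had an IDR peak within 500 bp of an own start more often than other genes with such sequence, 34.1% (163 of 478) against 22.8% (305 of 1340). Hosts have more deep intronic sequence, with a median of 17.2 kb against 2.90 kb, so the shares were also taken by class of length, with no test. Up to 5 kb they were 36.5% (24.7 to 49.6) of hosts and 26.6% (23.6 to 29.7) of other genes. At 5 to 20 kb they were 34.8% and 18.5%, and at 20 to 50 kb 33.1% and 13.5%. Over 50 kb they were 31.9% (21.2 to 44.2) of hosts and 13.2% (4.41 to 28.1) of other genes. The share of hosts was the higher in each class, and the intervals overlapped in the shortest and the longest.

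Genes were then grouped by role, in 16 lists chosen with earlier results of these data known, so that their counts describe the hosts and are no test. The share of hosts over all 1818 genes was 26.3% and the density 38.5 members per Mb. Both include the genes with very long introns and 0 members that were named above. By length of such sequence the share of hosts was 7.16% up to 5 kb and 36.8% at 5 to 20 kb. It was 51.6% at 20 to 50 kb and 64.5% over 50 kb, and the lists were not compared at equal length. In 7 lists the genes had a density whose interval lay above that of all genes. Density also differed with distance from a start, with 58.9 per Mb at 5 to 10 kb and 3.68 beyond 40 kb. No list was compared with all genes at equal distance. Of the 7, the intervals of the bHLH, Hox and axon guidance lists took in 58.9, and the rest lay above it. Genes of Polycomb and Trithorax group proteins, which keep genes silent or active through cell divisions, had 216 per Mb (126 to 345) with 6 of 13 as hosts. The highest of these were tara (2094), Psc (692), trx (504) and skd (321), given by the pooled signal of the strongest member. Of the 17 members in that list 8 lay in tara. Signalling genes had 126 per Mb (89.3 to 172) with 12 of 18 as hosts, led by the Wnt receptor gene fz (1106), the BMP ligand gene dpp (1009.6), pnt (726) and the FGF ligand gene bnl (459.8). Glial genes had 251 per Mb, but from 2 hosts of 3, pnt and Nrg (374), and pnt is also in the signalling list. Of the 11 members in the glial list 7 lay in pnt.

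Proneural and other bHLH genes, whose products share only this domain with Oli as a group, had 98.9 per Mb (55.4 to 163) with 4 of 7 as hosts. These were crp (1754), Mnt of the Max network (1026), the steroid receptor coactivator gene tai (527) and dysf (387), a regulator of tracheal fusion. Of the 15 members in that list 7 lay in tai, and the density without tai was not computed. Nuclear receptor and ecdysone response genes had 91.8 per Mb (60.5 to 134) and the highest share of hosts, 11 of 13. Their median length of deep intronic sequence was 19.8 kb, against 5.45 kb over all genes. Hr3 (3142), Hr4 (1503), Eip74EF (1075) and Eip75B (827) led that list. Hox genes and cofactors had 74.5 per Mb (47.3 to 112) with 5 of 11 as hosts, led by hth (800.1), Antp (622), Ubx (235) and pb (223). Of the 23 members in that list 19 lay in hth and Antp, and without these genes, left out after the values had been seen, the density was 30.7 per Mb (8.37 to 78.7). Axon guidance genes followed with 65.9 per Mb (47.9 to 88.4) and 14 of 29 as hosts, among them Sema1a (952), the netrin gene NetA (825), the receptor phosphatase gene Ptp10D (544) and side (476).

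In 2 lists the interval lay below that of all genes. Synapse and ion channel genes had 5.41 members per Mb (1.47 to 13.9), with 4 of 29 as hosts and 1 member in each: Nlg3 (297), nAChRalpha6 (277), SK (194) and Sh (169). Neuronal RNA-binding protein genes had 21.5 per Mb (12.96 to 33.6) although 10 of 13 were hosts, with a median of 56.4 kb of deep intronic sequence against 5.45 kb over all genes. Of the 0.883 Mb of such sequence in that list, bru3 held 234 kb with 0 members. The density without bru3 was not computed, so the place of this list below all genes may rest on that gene. brat (662), how (609), shep (361) and mub (341) were the strongest. Genes for identity factors of motor neurons, which depend on Olig proteins in vertebrates, had 1 host of 9, the GATA factor gene grn (374), and 10.8 per Mb (0.272 to 59.9), an interval that takes in the density of all genes. Muscle factor genes had 2 hosts of 9, Mef2 (335) and lbl (299.7), and 19.6 members per Mb (2.37 to 70.8). Columnar and head homeobox genes had 1 host of 13, Lim1 (483), and 24.1 per Mb (4.96 to 70.3). Both intervals also take in the density of all genes.

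The intervals of the other 4 lists took in the density of all genes too. Notch pathway genes had 71.9 per Mb (37.1 to 126) with 3 of 9 as hosts, N (1572), mam (434) and kuz (262). Cytoskeleton and adhesion genes had 44.1 per Mb with 13 of 26, with hosts such as the polarity gene scrib (581.7), the teneurin gene Ten-a (547) and the integrin gene mew (544). Recognition genes of the immunoglobulin family had 30.9 per Mb with 9 of 34, led by Fas3 (775), kirre (546), hbs (442) and DIP-eta (316). Of the 35 members in that list 23 lay in kirre, and the density without kirre was not computed. Temporal and postmitotic identity factors had 27.9 per Mb with 4 of 15, mamo (1139), ab (426), dac (175) and br (159). In the strongest 6496 peaks of each replicate, the density of each of the 16 lists stayed inside its interval from the IDR list.

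**Figure D3:**
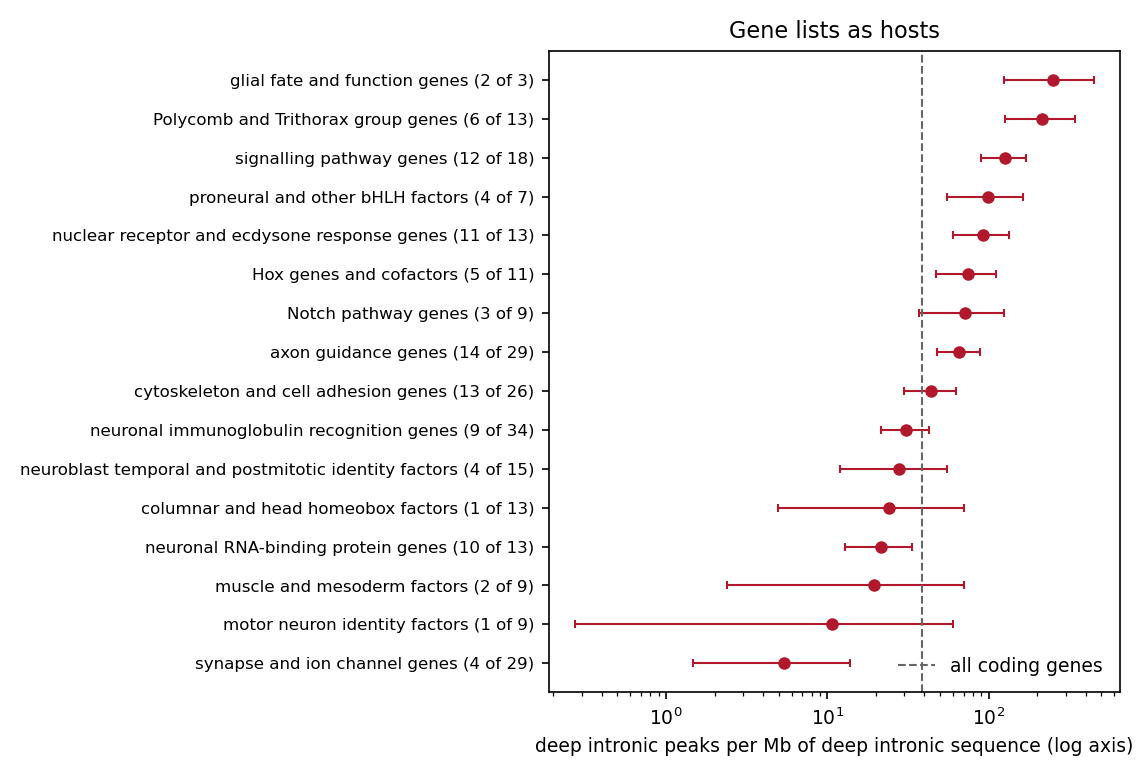
Deep intronic peaks per Mb of deep intronic sequence in each of the 16 gene lists, on a log axis with exact 95% Poisson intervals, and hosts of all genes with such sequence in brackets. The dashed line is the density over all coding genes, 38.5 per Mb. Glial, Polycomb and Trithorax, and signalling genes lie highest, and synapse and ion channel genes lowest.

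The summits were AT-rich. G and C made up 30.5% ± 7.10 (SD over 1032 peaks) of the 101 bp at the summit, against 42.1% ± 8.601 in the same width centred 500 bp to the right. The share was lower at the summit in 873 members (84.6%) and higher in 132 (exact sign test, two-sided, p = 1.46e-134). At the summits of the replicates it was 31.1% in replicate 1 and 30.2% in replicate 2. The contrast can be read in the strongest member of simj, with the summit first (chr3L:10682960-10683060) and the flank after it (chr3L:10683460-10683560), where capitals mark E-boxes.
simj summit: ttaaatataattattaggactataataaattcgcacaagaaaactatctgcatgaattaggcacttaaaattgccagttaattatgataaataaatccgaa
simj flank: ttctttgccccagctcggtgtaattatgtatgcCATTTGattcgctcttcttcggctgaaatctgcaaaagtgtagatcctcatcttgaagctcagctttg
This summit has 24.8% G and C and 0 E-boxes, and its flank 43.6% and 1.

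The profile of base composition had shoulders. In steps of 20 bp over all members, G and C fell to 29.5% at 10 bp left of the summit. They reached 46.4% at 250 bp left of it and 46.2% at 250 bp right of it, and lay between 39.4% and 42.4% beyond 500 bp. The AT-rich middle is therefore set between stretches richer in G and C than the intron farther out. Near intronic and distal intergenic summits had 30.6% and 30.5% G and C. The middle also held more repeat-masked bases, 25.01% at the summit and 19.02% in the flank, and the part of these in the result was not tested.

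**Figure D4:**
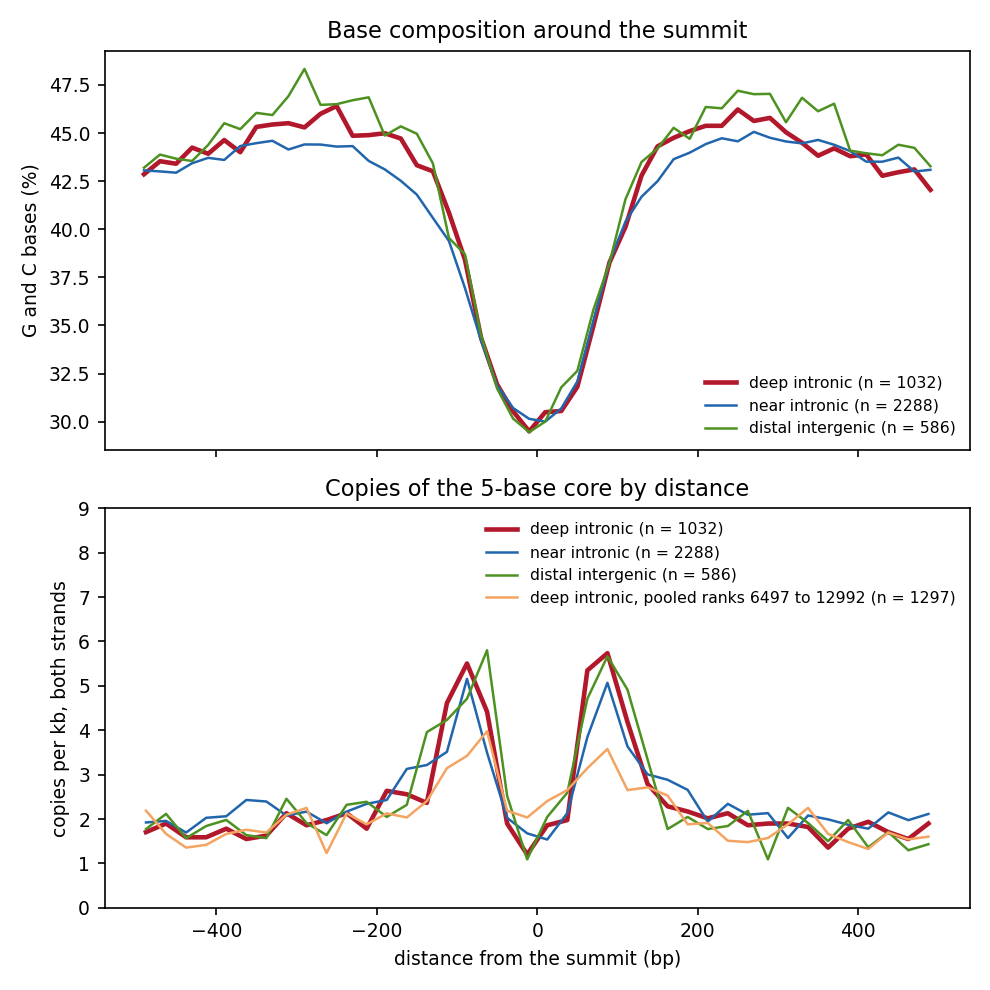
Base composition in 20 bp steps (top) and copies of CACTG on both strands in 25 bp steps (bottom), by distance from the summit, for deep intronic, near intronic and distal intergenic IDR peaks and for weaker deep intronic peaks of the pooled list. In deep intronic peaks G and C dip to 29.5%, and copies of CACTG peak at 75 to 100 bp on either side with a trough at the summit.

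No class of E-box passed the test as more frequent at the summits. All 10 classes of CANNTG were counted on both strands in the 101 bp at the summit and in the flank, and 3 were less frequent, while 30.1% of all hexamers were less frequent in the same comparison. CAGCTG stood at 17 summits and 52 flanks (0.327-fold, exact McNemar test, two-sided, adjusted over 25 motifs, p = 1.36e-04). CACATG (28 and 53, adjusted exact p = 0.0205) and CAACTG (40 and 64, adjusted exact p = 0.0478) were the other two. The call was kept in 10 of 11 alternatives for CAGCTG, in 7 for CACATG and in 5 for CAACTG, which lost it without replicate 1 (adjusted exact p = 0.0948) and without replicate 2 (adjusted exact p = 0.0531). Mammalian Olig proteins prefer CATATG. Here 39 summits and 49 flanks held it (adjusted exact p = 0.627). Under the alternatives tried its fold over the flank ran from 0.667 to 1.34, past the test in 0 of 11. Any E-box was present at 35.7% of summits and 43.0% of flanks. Some strong members do hold these sites, and 4 with signals of 1503, 809, 611 and 609 are printed with their surroundings, since E-boxes are the known sites of bHLH proteins: CATATG in Hr4 (chrX:1947708-1947753) and Raf (chrX:2302231-2302276), and CAGCTG in sima (chr3R:30092770-30092815) and how (chr3R:22049296-22049341).
Hr4 CATATG: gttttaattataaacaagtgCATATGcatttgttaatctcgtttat
Raf CATATG: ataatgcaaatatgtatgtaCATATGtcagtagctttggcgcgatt
sima CAGCTG: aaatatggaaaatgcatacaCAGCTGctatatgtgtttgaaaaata
how CAGCTG: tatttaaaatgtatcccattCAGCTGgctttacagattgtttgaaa
A match of 6 letters is a description and does not show that Oli binds there.

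Across the 25 fixed motifs, 3 (12%) were more frequent at the summit and 6 (24%) less frequent. The Mef2-like sequence TAWWWATA, where W is A or T, was held by 228 summits and by 87 flanks, or 22.1% and 8.43% (adjusted exact p = 7.48e-17). It was past the test under all 11 alternatives, at 2.00 to 3.04-fold. The GATA factor site WGATAR stood at 24.9% and 16.4% (adjusted exact p = 2.47e-05), and the homeodomain core TAATTA at 12.7% and 8.62% (adjusted exact p = 0.0149, lost in 4 of 11 alternatives). The Mef2-like sequence and the homeodomain core hold 0 G or C, and WGATAR, where R is A or G, holds 1 or 2. Besides the 3 E-boxes, the less frequent were CACACA (4.75% of summits and 11.3% of flanks), GAGAG of the GAGA factor (8.33% and 13.6%) and TGGGAA of the Notch pathway factor Su(H) (4.65% and 7.85%). The call for Su(H) was lost in 7 of 11 alternatives, among them without replicate 2 (adjusted exact p = 0.119). No comparison at the same base composition was made, for the more or the less frequent motifs.

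Of all hexamers, with a sequence and its reverse complement as 1, 324 (15.6%) were more frequent at the summit and 627 (30.1%) less frequent. The lowest p belonged to TTAAAA, which 34.6% of summits held, against 12.2% of flanks (adjusted exact p = 3.25e-29). The fold followed the number of G and C letters: its median was 2.02 for hexamers with 0, 1.88 with 1, 1.24 with 2, 0.743 with 3, 0.423 with 4, 0.264 with 5 and 0.194 with 6. Within that order, hexamers with CTA or TAG, a group formed after the values were seen, lay higher. Their median was 1.73 against 1.17 for the others at 2 such letters, and 1.16 against 0.698 at 3. TAGTAA (94 summits and 22 flanks) and TAACTA (108 and 26) were past the test under all 11 alternatives, at 2.47 to 4.19-fold and 2.12 to 4.17-fold. ACCTAT had the highest fold, 6.43 (45 summits and 7 flanks), but only 1.73 against flanks 1000 bp to the right (adjusted exact p = 0.0692).

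**Figure D5:**
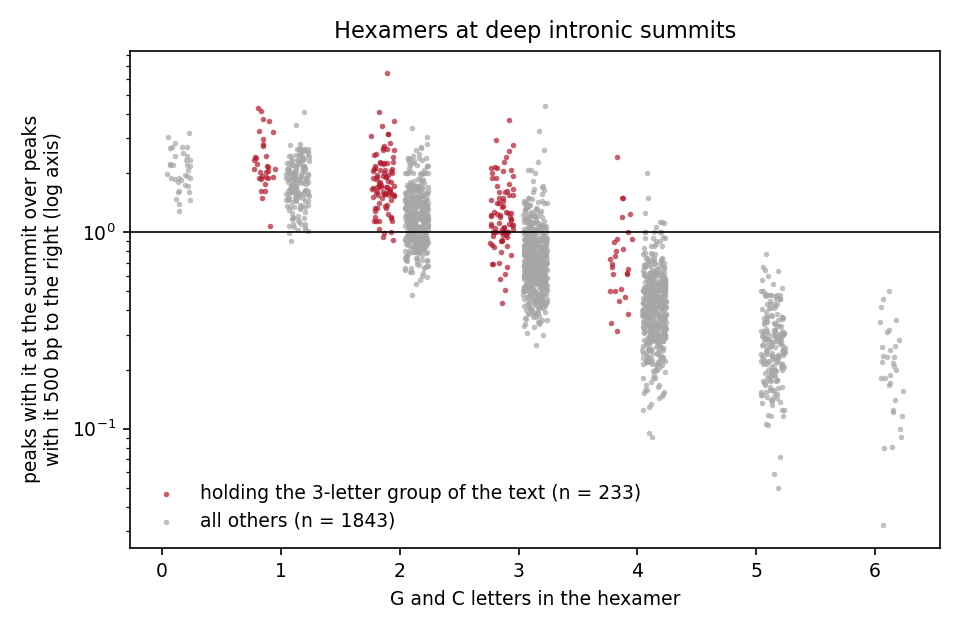
Each point is a hexamer, by its number of G and C letters and by the number of deep intronic peaks with it at the summit over the number with it 500 bp to the right (log axis). Red points hold CTA or TAG (n = 233) and grey points hold neither (n = 1843). The ratio falls as G and C letters increase, and the median of the red points is above that of the grey ones at 2 and 3 letters.

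The width of the window decided the result for CACTG. This sequence has a single base between CA and TG, so it is not an E-box. It was put among the 25 motifs because earlier results of these data were known. The adjusted p-values given for it do not cover that choice. Within 50 bp of the summit it was found in 148 members, and in 155 flanks (adjusted exact p = 0.849). Within 100 bp it was found in 510 members (49.4%), against 290 flanks (28.1%), which is 1.76-fold (exact McNemar test, adjusted p = 1.32e-21). Copies were therefore counted by distance, without a test, since the pattern had been seen. Per kb there were 1.49 copies within 25 bp of the summit and 1.86 at 25 to 50 bp. There were 4.92 at 50 to 75 bp, 5.62 (4.99 to 6.31) at 75 to 100 bp and 4.46 at 100 to 125 bp. At 125 to 150 bp there were 2.54, and at 500 to 1000 bp 1.65 (1.57 to 1.73). Within 50 bp of the summit the level was thus close to that at 500 to 1000 bp.

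From 50 to 125 bp, members held 5.0 copies per kb, 3.03 times the level at 500 to 1000 bp. Around the summits of the replicates the ratio was 2.66 in replicate 1 and 2.98 in replicate 2. It was 3.65, 2.84 and 2.64 in the strongest, middle and weakest 344 members. In the 804 members of 416 bp there were 4.60 copies per kb at 50 to 125 bp, against 1.66 at 500 to 1000 bp. In the 228 members of other widths there were 6.404 against 1.60, and the median signal was 226 in the first set and 591 in the other. G and C at the summit were 30.8% and 29.5% in these sets. Among deep intronic peaks of the pooled list that were too weak for the IDR list, those at ranks 6497 to 12992 gave 1.97 and those after them 1.31. Of the copies in members 18.0% were repeat-masked, against 6.11% of those at 500 to 1000 bp, and with unmasked copies alone the ratio was 2.65. Within 125 bp of the summit, 39 members (3.78%) shared a stretch of 20 bases with a member over 1000 bp away.

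At least 1 copy from 50 to 125 bp was present in 522 members (50.6%, 47.5 to 53.7), against 21.6% at the same distances around the flank. It was on the left alone in 176, on the right alone in 188 and on both sides in 158. The share with copies on both sides was 15.3% (13.2 to 17.7) at the summit, against 1.45% (0.816 to 2.39) around the flank. In those 158 members the inner copies stood a median of 163 bp apart, with quartiles of 149 and 176 bp. Of 774 copies, 460 (59.4%, 55.9 to 62.9) read CACTG on the left or CAGTG on the right of the summit, and 314 read the other way. Of the printed peaks, Gug reads the first way on both sides, and tara, Hr4 and Sema1a the other. The orientation share was 59.5% in replicate 1, 60.3% in replicate 2 and 51.9% (45.7 to 58.1) around the flank.

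The letters next to the core were uneven too. Written as CAGTG, 774 copies from 50 to 125 bp had C in 42.5% and T in 35.4% of cases 2 bases before the first letter, against 24.8% and 30.1% in 1692 copies at 500 to 1000 bp. The base after the last letter was T in 29.5% and 20.5%, and the next base was A in 49.6% and 33.8%. Of 2059 hexamers with at least 100 copies at 500 to 1000 bp, the highest ratios of copies per kb were those of GTGCAC (4.66), ACACTG (4.30), ACAGTG (4.21), AGTGTA (3.86), CAGTGC (3.85) and CACTGA (3.51). Of these 6, 4 hold the core.

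At the summit itself no fixed motif was shown to set deep intronic peaks apart. Of 75 comparisons (25 motifs against 3 sets of peaks, in the 101 bp at the summit), 0 were past the adjusted Fisher test (0%), and 1 had an unadjusted exact p under 0.05, CAAATG at 12.4% of members and 10.2% of all other peaks (p = 0.0409). The folds over the other sets ran from 0.258 to 1.70, so differences of that size were not detectable for rare motifs. Within 100 bp, the promoter element DRE was rarer in members, at 3 (0.291%) against 113 of all other peaks (2.07%, adjusted exact p = 5.75e-04). Against near intronic peaks the shares were 0.291% and 0.656% (adjusted exact p = 0.637). CACTG within 100 bp was found in 49.4% of members and 44.3% of all other peaks (adjusted exact p = 0.0897). Copies on both sides stood at 15.3% of deep intronic, 10.3% (9.10 to 11.6) of near intronic and 15.02% (12.2 to 18.2) of distal intergenic peaks, as a description. The orientation share was 59.4% in members, 51.4% (48.7 to 54.0) at near intronic and 65.5% (60.8 to 69.9) at distal intergenic peaks.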

How the data were processed

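Chromatin from 2 replicates was analysed through the 4 deposited peak lists (replicate 1, replicate 2, pooled, IDR), all on dm6, per the file names and accompanying notes. Per those notes, the authors set each replicate against 1 shared control, which ties the replicate lists to each other. The sources used here name no aligner or peak caller. The deposited signal is the height of a peak with no scaling stated, and it was used to rank and describe peaks. Set between replicates, it is given side by side only. The deposited -log10 q-value runs from 2.59 to 3.73 in the IDR list and was not used for ranking.

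Introns, exons and starts came from Ensembl release 115 (BDGP6 annotation 54). Exons of annotated transposable elements counted as exons. Sequence came from the RefSeq copy of the dm6 assembly. A peak in several coding genes was named for the shortest. Tests were run with scipy 1.17.1 on Python 3.11.15, tables were handled with pandas 2.3.3 and numpy 2.4.6, and plots drawn with matplotlib 3.10.9.

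Windows reached 50 bp either side of the summit (101 bp), with the flank centred 500 bp to the right. Motif presence was compared within peaks by exact McNemar tests over 25 motifs or all hexamers, and between peak sets by Fisher's exact test over 75 comparisons, two-sided with Benjamini-Hochberg adjustment. The threshold was an adjusted p of 0.05. The McNemar test of hexamers and Fisher's exact test were tried on simulated data. The sign test of G and C and the fixed motifs were not. The members, the 16 gene lists, the motifs and the designs were chosen with earlier results of these data known. The 5-letter motif CACTG was among the 25 for that reason. Counts by distance from the summit were added after the windows of 100 bp had been seen. Of 379 list symbols 371 matched by symbol, 4 by RefSeq synonym and 4 by hand.

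Named genes are hosts of the 15 strongest members with a peak in each replicate list, the 10 genes that hold the most, up to 4 hosts with the highest signal in each list, and Oli. The 5 genes with the longest introns, tna, the gene at the distance limit and the genes of the printed E-boxes were chosen after their values were seen. A gene that the rule names is not reported here.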

Additional observations from a re-analysis of the deposited data

How the results depend on the processing

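Every alternative kept the direction of the GC dip, which was past the test in 11 of 11 (74.6% to 86.4% of members lower at the summit), and of the weaker signal against near intronic and all other peaks (5 of 5). Members made up 12.7% of the IDR peaks above the median signal and 17.9% of the strongest 12992 pooled peaks. The share of IDR peaks was 24.4% with the limit at 2500 bp and 7.17% at 10000 bp. Among the strongest 6496 peaks of replicate 1 alone the share was 15.3%, and of replicate 2 alone 15.9%. These single-replicate lists, which are not IDR lists, are the alternatives called without replicate 2 and without replicate 1. The difference in signal from distal intergenic peaks passed the test in 12992 pooled peaks (3.81 percentage points) and at 2500 bp (4.48). Genes of the lists that were hosts numbered 99, and 58 among IDR peaks above the median signal or 61 at 10000 bp. More frequent motifs numbered 1 above the median signal. Less frequent motifs numbered 2 there, 2 at 10000 bp and 3 within 25 bp of the summit. More and less frequent hexamers numbered 175 and 233 above the median signal, 184 and 234 at 10000 bp and 193 and 257 within 25 bp. These settings hold fewer peaks or shorter windows. Motifs that differed from all other peaks numbered 2 in 12992 pooled peaks and 1 within 100 bp. Members found in both replicates were 88.1% with an overlap of 50% and 79.8% among the strongest peaks. CACTG, at 0.955-fold within 50 bp, changed direction and passed the test within 100 bp (1.76-fold) and in 12992 pooled peaks (1.23-fold). Of 366 values for single motifs, hexamers, lists and densities, 27 lost the test, 11 gained it and the 2 of CACTG changed direction and passed the test. Other folds crossed 1 without passing it, such as that of CATATG (0.667 to 1.34). With transposable element exons not counted as exons, an alternative chosen after seeing the data, the share stayed within its interval. Depth is unknown and no signal tracks were analysed here, so a missing peak is not evidence that a site is unoccupied.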
